A study of Sus scrofa with 9 samples.

Results

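The genes of lactose synthesis and glucose entry were followed in the sow mammary gland from late pregnancy to established lactation. Of 7 gene symbols (B4GALT1, UGP2, HK1, HK2, PGM1, GPI and SLC2A1), 6 had a probe set annotated to that symbol alone, and HK2 had none. The 6 genes are carried by 7 of the 23999 endogenous probe sets on the array and are 6 of 6765 genes with a symbol. All 7 probe sets passed the filter on dim signals, and UGP2 had a pair of them.

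Mammary biopsies came from 6 Large White sows, each sampled at 3 stages: late pregnancy, 17 days ahead of parturition (day -17), the first day of lactation (day 1) and established lactation (day 17). The outer days carry a stated tolerance of 2 days. Every array carried RNA combined from 2 sows, so that each of the 3 days had 3 pools and the study 9 porcine Affymetrix arrays. No group had a treatment other than stage. The labels give no age and do not say which sows made up which pool, and a pool hides the spread between its animals.

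Lactose, the main sugar of milk and its main osmotic solute, is made in the Golgi of secretory epithelial cells. Glucose enters the cell through carriers such as SLC2A1 and is trapped as glucose 6-phosphate by hexokinases such as HK1. PGM1 turns glucose 6-phosphate towards glucose 1-phosphate, from which UGP2 makes UDP-glucose, whereas GPI turns it towards fructose 6-phosphate and glycolysis. UDP-glucose is epimerised to UDP-galactose, and lactose synthase, a complex of B4GALT1 and alpha-lactalbumin (LALBA), joins the galactose to glucose.

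The genes of this route did not all move one way. B4GALT1 was 6.31-fold brighter on day 1 and 9.63-fold brighter on day 17 than on day -17, and UGP2 3.69-fold and 7.23-fold. SLC2A1, the carrier, was 2.17-fold brighter on day 17 than on day -17, a direction that turned when arrays were scaled to spiked controls instead. HK1 and PGM1 fell over the same interval, HK1 by 59.9% and PGM1 by 36.9%, and GPI did not pass the test in any comparison unless the arrays were scaled to those controls. These folds are differences of mean log2 signals with n = 3 pools per day, relative to the trimmed mean signal to which every array had been scaled.

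**Figure D1:**
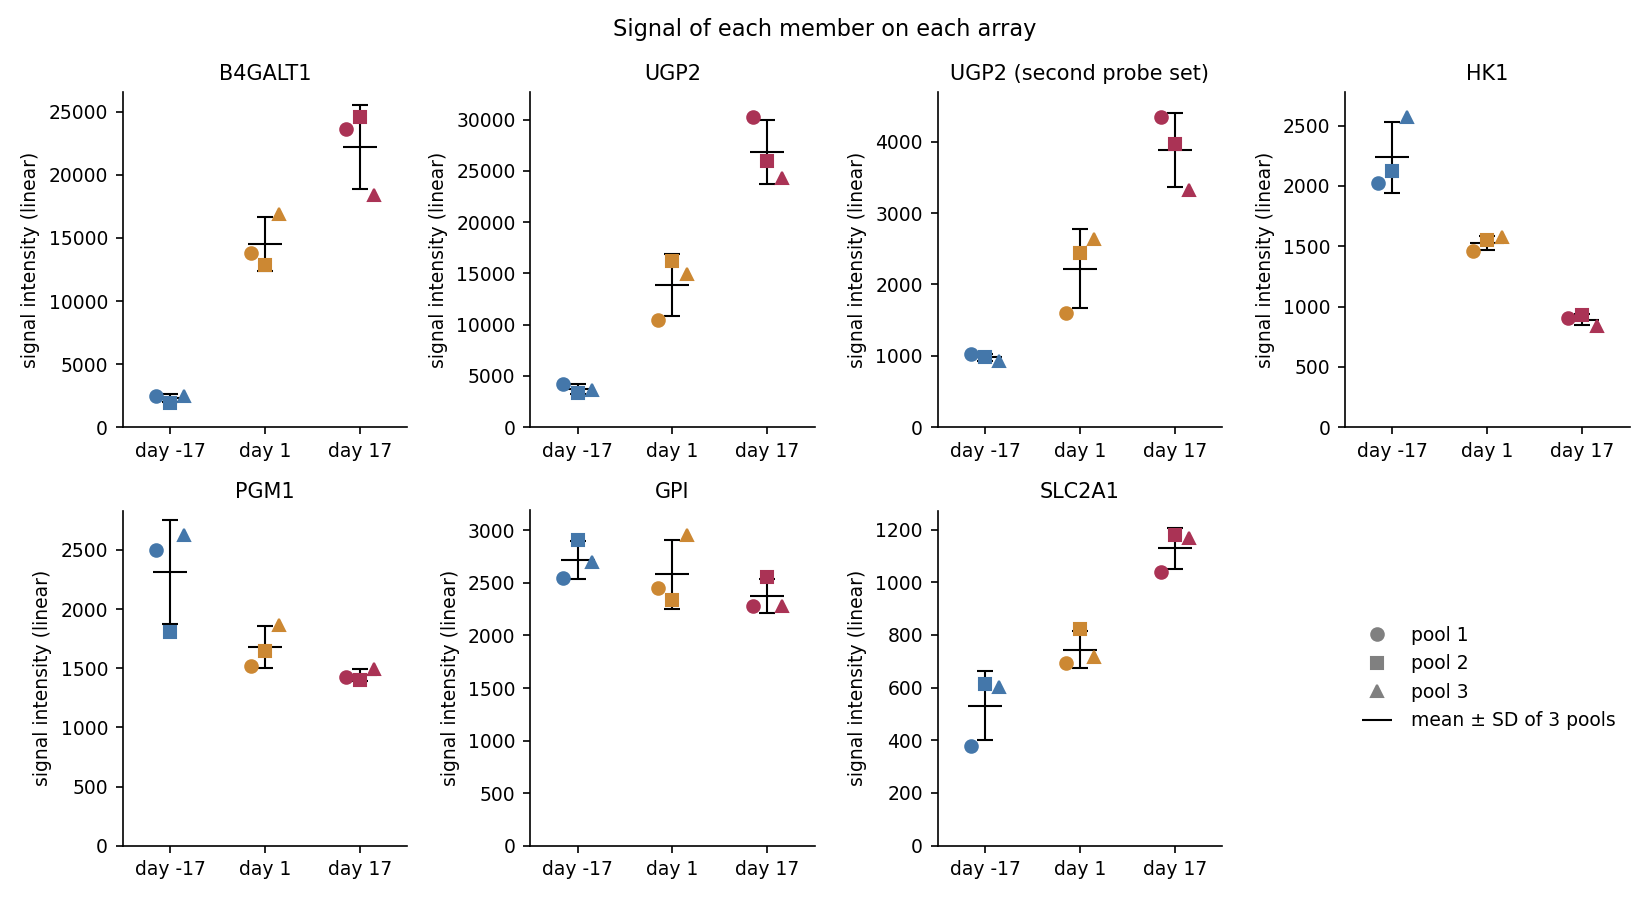
Linear signal intensity of the 7 probe sets of the 6 genes on each of the 9 arrays, by day; symbols mark pools 1 to 3 and bars the mean ± SD of 3 pools. B4GALT1 and both UGP2 probe sets climb from day -17 to day 17 with no overlap between days, HK1 descends with no overlap, and GPI overlaps on all days.

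Signals are given per array in the order of pools 1, 2 and 3. Spearman's rho between arrays of 1 day was 0.954 to 0.976 across endogenous probe sets, whose signals ranged from 0.0632 to 83677. Each comparison was tested with limma over the 15519 probe sets that passed the filter, with Benjamini-Hochberg adjustment within the comparison, and a gene was called at an adjusted p under 0.05. The array also carries 21 probe sets for spiked E. coli control transcripts, and these were brighter on later days. Scaling the arrays to them (E. coli scaling) lowered every log2 difference by 0.43 between day -17 and day 1, by 0.87 between day 1 and day 17, and by 1.30 over the whole interval. The median over all tested probe sets was -0.07, -0.0092 and -0.08 before it and -0.49, -0.88 and -1.38 after it. The log2 ratio of the 3' to the 5' GAPDH control, a sign of RNA quality, was 1.25 to 1.62 on day -17, 1.17 to 1.21 on day 1 and 0.825 to 0.983 on day 17, and its part in the results was not tested. Which scaling is nearer to RNA amounts per gland was not tested, so each direction below is relative to the array's trimmed mean unless E. coli scaling is named.

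The labelled tissue was checked against its defining markers. All 7 milk protein genes of the secretory epithelium passed the filter, and their summed signal lay between 60484 and 85935 on day -17, between 216822 and 304308 on day 1 and between 458643 and 468487 on day 17. Over the whole interval all 7 of these rose, 3 of 8 tested luminal epithelial genes rose and 3 fell, 4 of 5 myoepithelial genes rose, and 1 of 4 leukocyte genes rose. Of all tested probe sets, 21.7% were called higher and 24.8% lower, so the leukocyte count is near that share. The myoepithelial count includes MYLK, from a very dim mean of 5.30 on day -17. Of 6 skeletal muscle genes, 5 were too dim to test and the 1 tested fell. Under E. coli scaling 5 of the 7 milk protein genes rose and 0 fell, 1 of 8 luminal genes rose and 5 fell, 1 of 5 myoepithelial genes rose and 2 fell, and 0 of 4 leukocyte genes rose and 3 fell. That scaling called 471 of all 15519 tested probe sets higher and 12685 lower. In tissue RNA, fewer cells of a type and less RNA per cell cannot be told apart.

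B4GALT1 encodes the galactosyltransferase that is the catalytic subunit of lactose synthase and also adds galactose to glycoproteins. Its signal was 2495, 1954 and 2458 on day -17, 13815, 12857 and 16916 on day 1, and 23640, 24608 and 18376 on day 17. All arrays of a later day were above all arrays of an earlier day, although pool 3 of day 17 came close to pool 3 of day 1. The day means were 2302 ± 302, 14530 ± 2122 and 22208 ± 3354 (SD, n = 3). In limma the rise to day 1 was 2.66 ± 0.16 on the log2 scale (SE, adjusted p = 5.14e-06), and the rise from day -17 to day 17 was 3.27 ± 0.16 (adjusted p = 6.46e-07). Between day 1 and day 17 the log2 difference was 0.61 ± 0.16 (limma adjusted p = 0.0305).

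That later step was the least firm of the B4GALT1 results. Its call was lost without pool 1 of day 1 (limma adjusted p = 0.0549), pool 2 of day 1 (0.0874), pool 1 of day 17 (0.0997) or pool 2 of day 17 (0.106). It was also lost after quantile normalization (0.0798), after median centring (0.0646) and without an intensity trend (0.0634), and with E. coli scaling the difference turned to -0.26 (0.158). The rise to day 1 and the rise from day -17 to day 17 were called under all 20 alternatives tried. Of the whole log2 difference between day -17 and day 17, 81.3% was present by day 1. The first step exceeded the second by 2.05 ± 0.27 on the log2 scale (95% interval 1.44 to 2.65, limma adjusted p = 0.00607), a test added after the values were seen. That test called 4.95% of all tested probe sets.

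UGP2 encodes UDP-glucose pyrophosphorylase, which makes the UDP-glucose that feeds lactose, glycogen and glycoprotein synthesis. On its brighter probe set the signal was 4248, 3311 and 3589 on day -17, 10498, 16173 and 14974 on day 1, and 30280.2, 25937 and 24276 on day 17. Days did not overlap, and pool 1 of day 1 was the lowest of its day. The second probe set read 1022, 981 and 933 on day -17, 1594, 2438 and 2635 on day 1, and 4349, 3973 and 3328 on day 17. It had the same order of days and the same low pool on day 1.

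By limma, the brighter probe set of UGP2 rose by 1.88 ± 0.17 to day 1 (SE on the log2 scale, adjusted p = 9.14e-05) and by a further 0.97 ± 0.17 to day 17 (adjusted p = 0.00744). From day -17 to day 17 the rise was 2.85 ± 0.17 (limma adjusted p = 2.17e-06). The second probe set rose by 1.15 ± 0.19, 0.83 ± 0.19 and 1.98 ± 0.19 in the same comparisons (limma adjusted p = 0.00241, 0.0186 and 3.86e-05). Both probe sets were called in all 3 comparisons. With E. coli scaling the step from day 1 to day 17 was 0.09 on the brighter probe set and -0.045 on the second (limma adjusted p = 0.615 and 0.829). By day 1, 66% of the whole log2 difference was present, and the excess of the first step over the second did not pass (0.92 ± 0.30, 95% interval 0.26 to 1.57, limma adjusted p = 0.107).

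LALBA, the other subunit of lactose synthase, is no member and is given for comparison. Its signal was 1146, 749 and 2053 on day -17, 34146, 45293 and 50869 on day 1, and 74226, 74363 and 76415 on day 17. It rose by 5.15 ± 0.30 to day 1 and by 5.96 ± 0.30 to day 17 (SE on the log2 scale, limma adjusted p = 4.4e-06 and 6.71e-07 against day -17). Between day 1 and day 17 it did not pass (0.81 ± 0.30, limma adjusted p = 0.0947; 0.04 after quantile normalization and -0.07 with E. coli scaling), although the arrays of these days did not overlap. On day 17 LALBA was near the brightest endogenous signal of 83677, as were the milk protein genes CSN1S1 (72571 ± 184, SD, n = 3) and CSN3 (71411 ± 628). Its difference between day -17 and day 17 may therefore be a lower bound, whereas B4GALT1 and UGP2 stayed at or below 30280.2. Between day 1 and day 17 the 7 milk protein genes had log2 differences from 0.75 (CSN2) to 0.84 (CSN1S1). Their median was 0.80, and -0.08 with E. coli scaling, which lowers that step by 0.87. Whether they were already near a ceiling on day 1 was not tested, so that step is not read as a bound.

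SLC2A1 encodes GLUT1, the facilitative carrier of the basal cell membrane through which glucose reaches the mammary epithelium. Its signal was 379.6, 612 and 601 on day -17, 694, 825 and 715 on day 1, and 1038, 1178 and 1169 on day 17. The days did not overlap, and pool 1 of day -17 stood below the other 8 arrays. SLC2A1 rose by 1.12 ± 0.19 on the log2 scale from day -17 to day 17 (SE, limma adjusted p = 0.00117). Neither step passed alone: the difference was 0.52 ± 0.19 to day 1 (limma adjusted p = 0.0743) and 0.60 ± 0.19 from day 1 to day 17 (adjusted p = 0.0621). The later step passed with the 6 compared arrays alone (limma adjusted p = 0.0314). With the pool number as a replicate block, the difference to day 1 passed (limma adjusted p = 0.0364), and it also passed after quantile normalization (0.0389) and after median centring (0.0333).

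The direction of SLC2A1 depended on the scaling. With E. coli scaling its difference between day -17 and day 17 was -0.19 (limma adjusted p = 0.366) and that between day 1 and day 17 was -0.27 (adjusted p = 0.205). Without pool 1 of day -17, the step to day 1 shrank to 0.29 (limma adjusted p = 0.205) and the step from day 1 to day 17, at 0.60, was called (adjusted p = 0.0196). On that array the luminal keratin KRT8 was at 2178, against 6925 and 5745 in the other pools of the day. EPCAM, of the same luminal list, was at 6785 there, against 9418 and 10443. The adipocyte hormone ADIPOQ was at 547 there, against 73.9 and 319. KRT8 was 986, 3104 and 2812 on day 1 and 1651, 1828 and 1328 on day 17, the day on which SLC2A1 was brightest. EPCAM went the other way, with 15803, 14922 and 22490 on day 1 and 28884.5, 25380 and 28341 on day 17. Of the 8 tested luminal genes, 3 rose and 3 fell from day -17 to day 17. Of all tested probe sets, 21.7% were called higher and 24.8% lower over that interval. Endothelium also uses SLC2A1, and of its 7 tested markers 0 rose and 1 fell from day -17 to day 17, with summed signals of 6113 to 10323, 6616 to 9969 and 6196 to 7392 on the 3 days and none of 8 genes at 0 (0 rose and 7 fell with E. coli scaling). The part of these cell types in the SLC2A1 result was not tested.

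HK1 encodes hexokinase 1, the widely expressed enzyme that phosphorylates glucose after entry. Its signal was 2022, 2120.3 and 2573 on day -17, 1458, 1549 and 1575 on day 1, and 908, 930.1 and 839.9 on day 17. Each day lay wholly below the day before it, with day means of 2239 ± 294, 1528 ± 61.6 and 893 ± 47.1 (SD, n = 3). The log2 difference was -0.54 ± 0.13 to day 1 (SE, limma adjusted p = 0.0136), -0.78 ± 0.13 from day 1 to day 17 (adjusted p = 0.00564) and -1.32 ± 0.13 over the whole interval (adjusted p = 4.41e-05). The fall to day 1 was lost without pool 3 of day -17 (limma adjusted p = 0.0566) and after median centring (0.0554). The other 2 differences were called under all 20 alternatives, and by day 1 41.2% of the whole log2 difference was present.

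Markers of other cells were also counted from day -17 to day 17, where 21.7% of all tested probe sets were called higher and 24.8% lower. The beta globin HBB, named after its values were seen, fell by 1.33 ± 0.13 on the log2 scale from day -17 to day 17 (SE, limma adjusted p = 4.08e-05). Of 3 tested erythrocyte markers, 0 rose and 2 fell, and the summed signal of 4 such genes went from 1593 to 3403 on day -17 to 873 to 1319 on day 1 and 755 to 861 on day 17. Of 7 tested fibroblast markers, 0 rose and 6 fell (7 with E. coli scaling), with sums of 41448 to 57174, 19437 to 49140 and 19411 to 20798. To day 1 alone, 1 of the erythrocyte and 2 of the fibroblast markers fell, against 12.1% of all tested probe sets. From day 1 to day 17, 0 of the 3 erythrocyte and 0 of the 7 fibroblast markers were called (2 and 6 fell with E. coli scaling). No gene of these lists was at 0, and their part in the fall of HK1 was not tested.

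PGM1 encodes phosphoglucomutase 1, which interconverts glucose 6-phosphate and glucose 1-phosphate. Its signal was 2499.8, 1807 and 2623 on day -17, 1519.8, 1644 and 1868 on day 1, and 1424, 1397 and 1495 on day 17. Day 17 lay below both other days, while pool 2 of day -17 fell within the range of day 1. PGM1 fell by 0.66 ± 0.16 on the log2 scale from day -17 to day 17 (SE, limma adjusted p = 0.00641), and this was called under all 20 alternatives. The difference to day 1 was -0.45 ± 0.16 (limma adjusted p = 0.0625). It passed without pool 2 of day -17 (-0.62, adjusted p = 0.0182), with the replicate block (0.0409), after quantile normalization (0.0424) and with E. coli scaling (-0.88, 0.00177). From day 1 to day 17 it was -0.22 ± 0.16 (limma adjusted p = 0.382), with -0.14 when pool 3 of day 1 was left out and -1.09 with E. coli scaling (adjusted p = 0.652 and 0.000188).

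Fat cell markers were counted over the same interval, where 21.7% of all tested probe sets were called higher and 24.8% lower. Of 8 tested adipocyte markers, 2 rose and 4 fell from day -17 to day 17, with a median log2 difference of -2.45 (1 rose and 7 fell with E. coli scaling, median -3.75). Their summed signal, of which FABP4 makes up the larger part, went the other way, from 8593 to 22044 on day -17 to 22842 to 25572 on day 17. None of 9 adipocyte genes was at 0, and their part in the PGM1 result was not tested. Pool 2 of day -17, the lowest of its day in PGM1, was also the lowest in ADIPOQ. The highest of that day was pool 3 in PGM1 but pool 1 in ADIPOQ. On day 1 ADIPOQ was 195, 33.5 and 4.58 in pools 1, 2 and 3, the reverse of the order in PGM1. On day 17 ADIPOQ was 23.2, 8.87 and 7.22, with PGM1 highest in pool 3. ADIPOQ was thus dim in most pools of the later days. FABP4 had another order on day 1, with 18170, 13755 and 15782, after 14145, 6393 and 11197 on day -17. These orders of 3 pools in single genes are descriptions only.

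GPI encodes glucose 6-phosphate isomerase, the entry step into glycolysis. Its signal was 2543, 2904 and 2699 on day -17, 2449, 2340.4 and 2953 on day 1, and 2283, 2560.2 and 2279 on day 17. Values of all days overlapped. The differences were -0.08 ± 0.13 (95% interval -0.36 to 0.20), -0.12 ± 0.13 (-0.40 to 0.17) and -0.19 ± 0.13 (-0.47 to 0.09) on the log2 scale (SE) to day 1, between day 1 and day 17, and over the whole interval. None passed (limma adjusted p = 0.68, 0.575 and 0.228). With E. coli scaling GPI fell in all 3, by 0.51, 0.99 and 1.50 (limma adjusted p = 0.00911, 0.000125 and 2.8e-06).

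**Figure D2:**
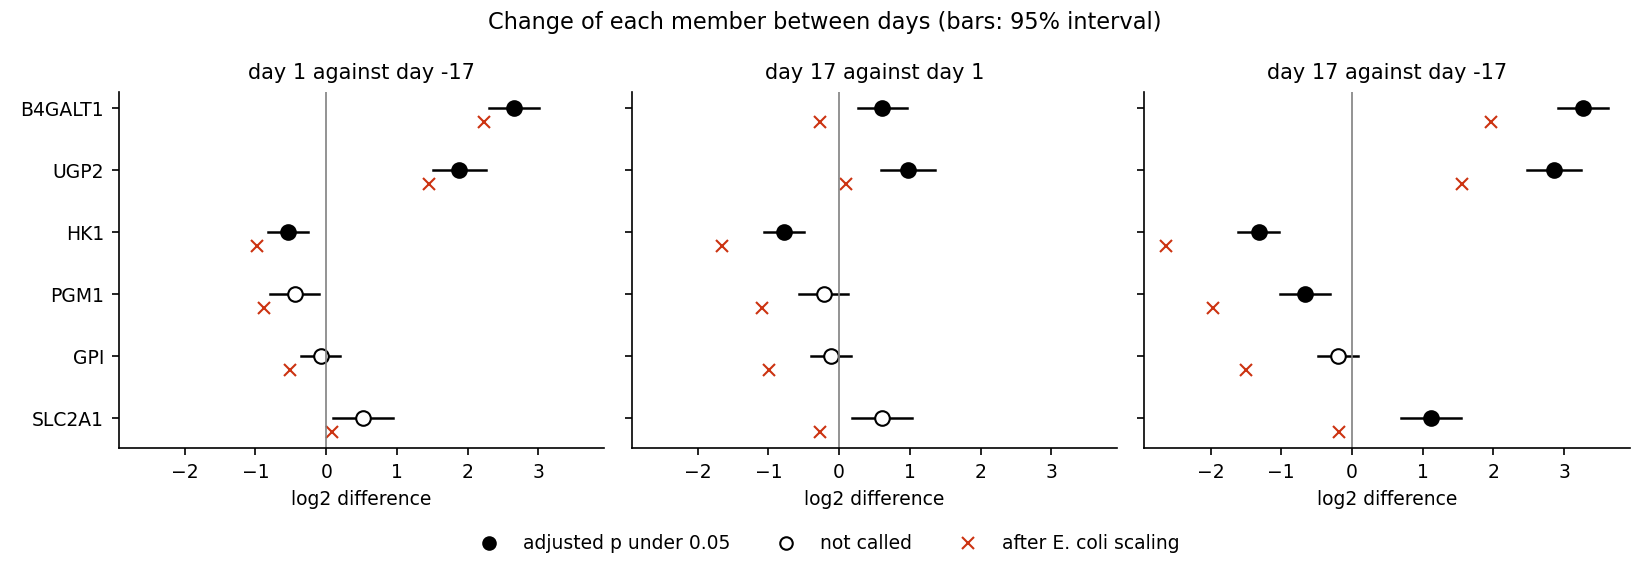
Log2 differences of the 6 genes (brighter probe set for UGP2) in the 3 comparisons, with 95% intervals from limma; filled circles have an adjusted p under 0.05 and crosses show the value after E. coli scaling. B4GALT1 and UGP2 lie right of 0 and HK1 left of 0 in each panel by the main scaling, and crosses of SLC2A1 lie left of 0 in the comparisons with day 17.

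Counted together, 2 of the 6 genes rose (B4GALT1 and UGP2) and 1 fell (HK1) between day -17 and day 1, where 24.1% of all tested probe sets were called, 12.0% higher and 12.1% lower. Between day 1 and day 17 the same 3 genes were called in the same directions, against 13.6% of all probe sets, 7.02% higher and 6.61% lower. Between day -17 and day 17, 3 rose (with SLC2A1) and 2 fell (with PGM1), where 46.5% of all probe sets were called, 21.7% higher and 24.8% lower. In the F test over the 3 days, 5 of 6 passed, all but GPI, against 45.3% of all probe sets. Arrays of the compared days did not overlap for 4, 5 and 5 of the 6 genes in the 3 comparisons, against 40.8%, 34.7% and 59.0% of all tested probe sets. At a fold of at least 2, 2 of 6 genes rose and 0 fell to day 1 (5.26% and 4.99% of all probe sets), 0 rose and 0 fell from day 1 to day 17 (2.42% and 2.86%), and 3 rose and 1 fell over the whole interval (11.2% and 13.3%). The median log2 difference of the 6 genes was 0.22, 0.24 and 0.46 in the 3 comparisons.

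The comparisons share arrays: day 1 serves both steps, and the outer days each serve a step and the whole interval. With E. coli scaling the counts were 2 higher and 3 lower to day 1, 0 higher and 3 lower from day 1 to day 17, and 2 higher and 3 lower over the whole interval. Of all 15519 tested probe sets, that scaling called 814 higher and 6271 lower, 112 higher and 11002 lower, and 471 higher and 12685 lower in these comparisons. The count of genes that fell to day 1 was 0 without pool 3 of day -17 or after median centring. The count that rose from day 1 to day 17 was 1 without pool 1 of day 1, pool 2 of day 1, pool 1 of day 17 or pool 2 of day 17, and after quantile normalization, median centring or without an intensity trend.

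Differences between 2 genes on the same array do not depend on a single scaling factor for that array, although quantile normalization can move them. Of 5 such differences planned, HK2 minus HK1 had no values, and the other 4 were tested with an exact permutation test over the 1680 splits of 9 arrays into 3 days. A single such difference reflects probe brightness and has no meaning as a level, so only its change over the days was read. UGP2 minus PGM1 was 0.77, 0.87 and 0.45 on day -17, 2.79, 3.30 and 3.00 on day 1, and 4.41, 4.21 and 4.02 on day 17, in log2 units. The days did not overlap. Between day -17 and day 17 UGP2, on its brighter probe set, gained 3.52 log2 units on PGM1, or 11.5-fold. With the mean of both UGP2 probe sets the gain was 3.08 log2 units. For UGP2 minus PGM1 on the brighter probe set, the exact permutation p of 0.00357 was the smallest the design allows (adjusted p = 0.0143 over 4 differences). With days permuted within pool numbers, a replicate block in which the exact p cannot go below 0.0278, the adjusted p was 0.111.

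B4GALT1 minus SLC2A1 changed from a mean of 2.14 ± 0.53 (SD, n = 3) on day -17 to 4.28 ± 0.30 on day 1 and 4.29 ± 0.28 on day 17. It did not pass after adjustment (exact permutation p = 0.0321, adjusted p = 0.0524), with all arrays of the later days above those of day -17. It passed after quantile normalization (adjusted p = 0.0357), and without pool 2 of day -17 (0.0429), pool 2 of day 1 (0.0333), pool 3 of day 1 (0.0357) or pool 3 of day 17 (0.0429). B4GALT1 minus UGP2 had means of -0.69 ± 0.13, 0.08 ± 0.37 and -0.28 ± 0.18 (SD, n = 3; exact permutation p = 0.0393, adjusted p = 0.0524). Without pool 2 of day 1, the lowest of its day, the adjusted p was 0.00714, and with the mean of both UGP2 probe sets it was 0.0214.

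GPI minus PGM1, the branch between glycolysis and UDP-glucose, had means of 0.25 ± 0.38, 0.62 ± 0.10 and 0.72 ± 0.14 (SD, n = 3). It did not pass (exact permutation p = 0.154, adjusted p = 0.154). On day -17, pools 1 and 3 stood at 0.02 and 0.04 and pool 2 at 0.68, and without pool 2 of that day the adjusted p was 0.0357.

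**Figure D3:**
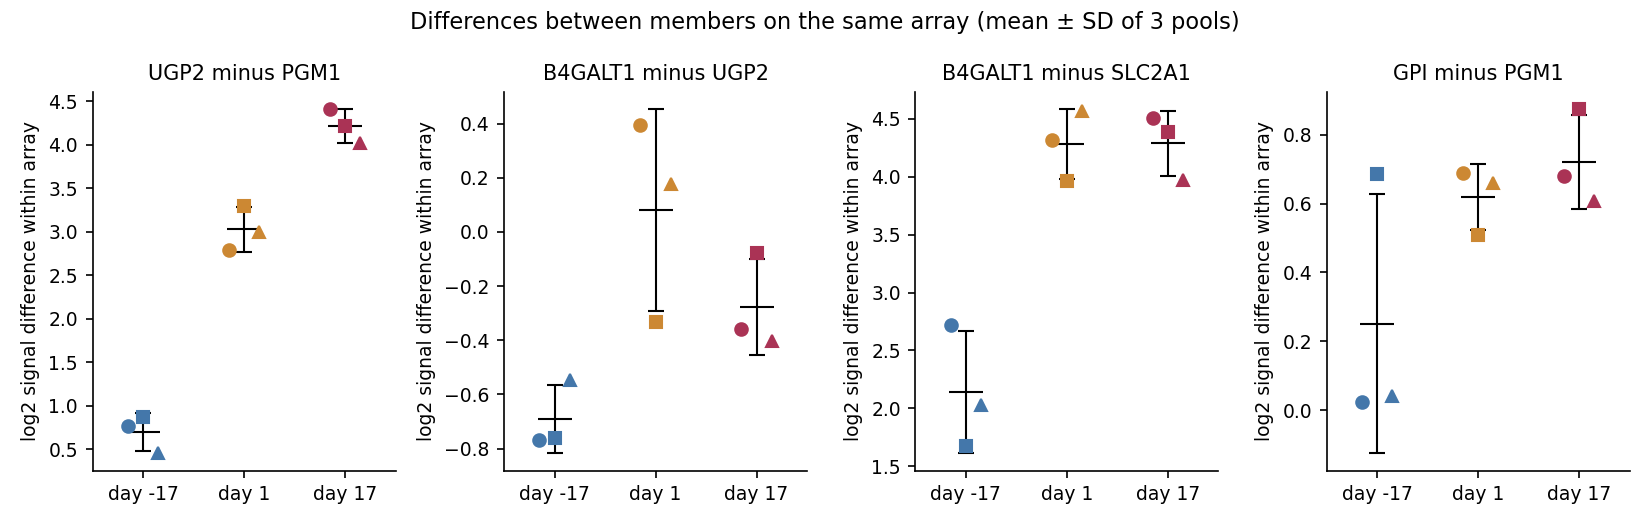
Difference of log2 signals between 2 genes on the same array, by day; symbols mark pools 1 to 3 as circle, square and triangle, and bars the mean ± SD. UGP2 minus PGM1 climbs at each step without overlap, and B4GALT1 minus SLC2A1 climbs to day 1 and has about the same mean, 4.28 and 4.29, on the last 2 days.

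Around these genes, 74 other genes were listed by role, of which 51 had a probe set and 46 were tested. The roles covered lactose synthesis, sugar nucleotides, hexokinases, glucose carriage and glucose 6-phosphate use. They also covered nucleotides and pyrophosphate, hypoxia and insulin signalling, and water and chloride channels. Of the 46, 18 rose and 1 fell between day -17 and day 1, 3 rose and 3 fell between day 1 and day 17, and 20 rose and 6 fell between day -17 and day 17. Over all tested probe sets, 12.0% were called higher and 12.1% lower in the first, 7.02% and 6.61% in the next, and 21.7% and 24.8% in the last. The list's median log2 differences were 0.25, 0.0022 and 0.38. These directions were scale-bound: with E. coli scaling 10 rose and 8 fell, 0 rose and 37 fell, and 4 rose and 33 fell.

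The other galactosyltransferases had smaller differences than B4GALT1. Of 4 tested relatives, 0 were called in either step, and from day -17 to day 17 B4GALT3 was the 1 that rose, by 0.72 ± 0.19 (SE on the log2 scale, limma adjusted p = 0.0125). B4GALT5, named after its values were seen, was the 1 that fell, by 0.64 ± 0.24 (limma adjusted p = 0.0486), and its call was lost on leaving out any 1 of the 6 arrays compared (0.0533 to 0.146). Under E. coli scaling B4GALT3 stood at -0.58 and all 4 fell. Of 5 genes listed for making and carrying UDP-galactose, 1 rose to day 1 and 3 to day 17 (1 rose and 4 fell with E. coli scaling). SLC35B1, a nucleotide carrier of the endoplasmic reticulum related to UDP-galactose carriers, rose by 1.64 ± 0.18 to day 1 and stood 1.85 ± 0.18 above day -17 on day 17 (limma adjusted p = 0.00031 and 4.41e-05). GALM, which interconverts the anomers of galactose, rose by 0.72 ± 0.12 between day 1 and day 17 (limma adjusted p = 0.00548; -0.16 with E. coli scaling).

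Among 6 genes of phosphoglucomutases and sugar nucleotides, 5 rose and 1 fell to day 1, and 4 rose and 1 fell from day -17 to day 17 (1 and 2 with E. coli scaling). GFPT1, the first enzyme of the hexosamine route and not of lactose synthesis, rose by 2.46 ± 0.23 and 2.31 ± 0.23 (SE on the log2 scale, limma adjusted p = 0.000128 and 5.78e-05). PGM2, a relative of PGM1 that acts mainly on pentose phosphates and was named after its values were seen, rose by 0.96 ± 0.14 and 1.26 ± 0.14 (limma adjusted p = 0.00124 and 8.38e-05), the latter -0.04 with E. coli scaling. PGM3, a mutase of the hexosamine route, rose by 1.32 ± 0.17 to day 1 and fell by 0.73 ± 0.17 between day 1 and day 17 (limma adjusted p = 0.000839 and 0.0225). On day 17 it stood 0.58 ± 0.17 above day -17 (limma adjusted p = 0.0199; -0.72 with E. coli scaling). The call of its fall was lost without pool 2 of day 1 (0.0639), pool 3 of day 1 (0.0707), pool 1 of day 17 (0.0642) or pool 3 of day 17 (0.0808).

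Of 7 tested glucose carriers besides SLC2A1, 2 rose to day 1, and 2 rose and 2 fell from day -17 to day 17 (1 and 5 with E. coli scaling). SLC50A1, a sugar transporter of the SWEET family, rose by 1.74 ± 0.18 to day 1 and by 2.02 ± 0.18 to day 17 against day -17 (SE on the log2 scale, limma adjusted p = 0.000188 and 2.58e-05). SLC2A4, the insulin-responsive carrier GLUT4, rose by 1.48 ± 0.32 and 1.81 ± 0.32 from a dim mean of 54.4 (limma adjusted p = 0.0096 and 0.00148; 0.185 for the latter with E. coli scaling). The 2 that fell were the fructose carrier SLC2A5 and the sodium-glucose cotransporter SLC5A1, with adjusted p = 0.0348 and 0.0407 in limma. SLC2A4, SLC2A5 and SLC5A1 were named after their values were seen. The fall of SLC5A1 was lost on leaving out any 1 of the 6 arrays compared (adjusted p from 0.0703 to 0.11). That of SLC2A5 was lost on leaving out any of them but pool 2 of day -17 (0.0504 to 0.129).

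Neither of 2 other tested hexokinase genes was called: HK3 differed by 0.06 ± 0.25 and ADPGK, an ADP-dependent glucokinase, by -0.08 ± 0.30 on the log2 scale between day -17 and day 17 (SE, limma adjusted p = 0.86 and 0.853; both fell with E. coli scaling). Of 8 genes for other uses of glucose 6-phosphate, 1 rose to day 1 and 2 rose and 1 fell to day 17 against day -17 (0 and 7 with E. coli scaling). GYG1, the primer of glycogen, rose by 0.49 ± 0.14 to day 1 (limma adjusted p = 0.0283). It was lost without pool 1 of day -17 (0.0831), pool 2 of day -17 (0.0605), pool 2 of day 1 (0.0586) or pool 3 of day 1 (0.0713) and with E. coli scaling (0.741).

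From day 1 to day 17, 1 of the 8 genes for other uses of glucose 6-phosphate rose and 1 fell (0 and 6 with E. coli scaling). Glycogen phosphorylase PYGL, named after its values were seen, rose by 0.65 ± 0.16 (SE on the log2 scale, limma adjusted p = 0.0227). From day -17 to day 17 it rose by 0.86 ± 0.16 (limma adjusted p = 0.00162). E. coli scaling lowers these differences by 0.87 and 1.30, more than either rise, so both turn with it. No other alternative was recomputed for PYGL. Glycogen synthase GYS1 fell by 0.83 ± 0.23 from day 1 to day 17 (SE on the log2 scale, limma adjusted p = 0.0383). It was lost without pool 2 of day -17 (0.053), pool 3 of day -17 (0.0578), pool 2 of day 1 (0.112), pool 3 of day 1 (0.0954), pool 1 of day 17 (0.0944) or pool 3 of day 17 (0.116), with no filter (0.0635) and with the 6 compared arrays alone (0.0692). PFKP, a phosphofructokinase of glycolysis, fell by 0.90 ± 0.30 from day -17 to day 17 (limma adjusted p = 0.0315). That fall was lost without pool 1 of day -17 (0.0897), pool 3 of day -17 (0.0843), pool 1 of day 17 (0.117) or pool 2 of day 17 (0.0512) and after quantile normalization (0.0644).

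Of 5 genes handling nucleotides and pyrophosphate, 4 rose to day 1, 1 fell from day 1 to day 17, and 2 were higher on day 17 than on day -17 (0 higher and 4 lower with E. coli scaling). CTPS1, which makes CTP from UTP, rose by 1.97 ± 0.23 to day 1 and stood 1.77 ± 0.23 above day -17 on day 17 (SE on the log2 scale, limma adjusted p = 0.000459 and 0.000264; 0.0621 for the latter with E. coli scaling). NME1, a nucleoside diphosphate kinase, rose by 1.12 ± 0.19 to day 1 and fell by 1.18 ± 0.19 from day 1 to day 17 (limma adjusted p = 0.00267 and 0.00488). On day 17 it differed from day -17 by -0.06 ± 0.19 (limma adjusted p = 0.8; -1.37, 4.07e-05, with E. coli scaling). Of 5 hypoxia and insulin signalling genes, 3 rose to day 1 and 3 to day 17 against day -17 (0 rose and 4 fell with E. coli scaling). The oxygen-responsive factor EPAS1 rose by 0.86 ± 0.18 to day 1 (limma adjusted p = 0.00798; 0.0904 with E. coli scaling).

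AKT1, a kinase downstream of insulin, rose by 0.54 ± 0.12 from day 1 to day 17 and by 1.21 ± 0.12 from day -17 to day 17 (SE on the log2 scale, limma adjusted p = 0.0172 and 5.08e-05). Both turned with E. coli scaling, to -0.33 and -0.09. The former was lost without pool 2 of day 1 (adjusted p = 0.0548), pool 2 of day 17 (0.0658) or pool 3 of day 17 (0.057). Of 3 water channels, 1 rose to day 1, and 2 rose and 1 fell from day -17 to day 17 (0 and 1 with E. coli scaling). AQP5 rose by 1.07 ± 0.30 and 1.04 ± 0.30 (limma adjusted p = 0.0298 and 0.0176; with E. coli scaling 0.64, adjusted p = 0.0816, and -0.26). Its rise to day 1 was lost without pool 1 of day -17 (0.0631), pool 2 of day -17 (0.0958) or pool 3 of day 1 (0.109), and that to day 17 without pool 2 of day -17 (0.0646), pool 1 of day 17 (0.0633) or pool 3 of day 17 (0.0682).

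**Figure D4:**
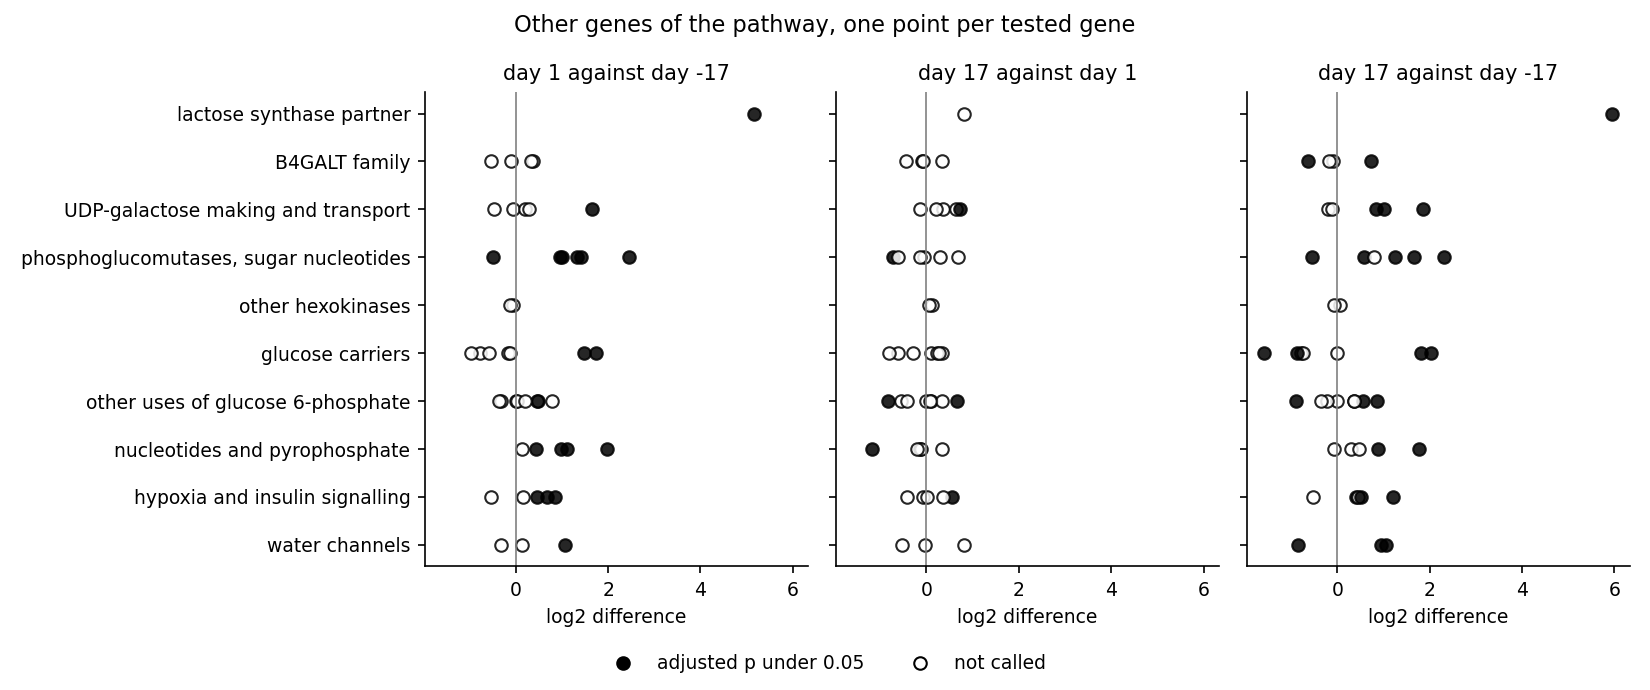
Log2 differences of the 46 tested pathway genes in the 3 comparisons, 1 point per gene, in rows by role; filled points have a limma adjusted p under 0.05. LALBA lies far right of all others in the comparisons with day -17, and 18, 3 and 20 of the filled points lie right of 0 in the 3 panels.

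Profiles most like each gene were ranked by Pearson's r of log2 signals over the 9 arrays, among 5517 other genes with a symbol. These r are descriptions, since the arrays share 3 days. Closest to B4GALT1 were RHEB (r = 0.998), ERLEC1 (0.996) and ORAI1 (0.996), and of these ORAI1, a calcium channel of the plasma membrane, had the nearest log2 differences, 2.37 to day 1 and 3.08 to day 17 against day -17. Closest to UGP2 were PDCD6 (0.996), DNAJC5 (0.995) and TNFSF13 (0.994). SLC2A1 was most like RPUSD1 (0.989), CD82 (0.980) and TMEM213 (0.978).

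For the genes that fell, the nearest profiles to HK1 were RHOQ (0.986), STN1 (0.984) and GSTO1 (0.983). PGM1 was nearest to PTGR1 (0.973), MDH1 (0.972) and SDHA (0.964), the last 2 being enzymes of the citric acid cycle and malate metabolism. GPI, whose days overlapped, had lower values with C3H7orf26 (0.928), POSTN (0.924) and GTF2H3 (0.912).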

How the data were processed

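Gene expression had been measured on 9 porcine Affymetrix arrays, each hybridised with pooled RNA of 2 sows. The deposited values are linear signal intensities, and the submitters' processing notes name MAS5 as their source; its version is not given in the sources used here. After 2% had been trimmed from either end, the mean signal of each array was 500.088 to 500.112. Arrays have no read depth, and their number limits the precision.

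Of 24123 probe sets, 124 Affymetrix controls were left out. Testing was limited to probe sets whose signal reached the 40th percentile of its array in at least 3 arrays, 15519 in all. Names came from the platform annotation: of the endogenous probe sets, 10069 had 1 symbol, 198 several (not used) and 13732 none here. No sequence or coordinate is given, since the files name no genome build. A gene with several tested probe sets was represented by the brightest on average, which left 5670 genes. Log2 signals without a pseudocount were fitted with limma 3.58.1 in R 4.3.3 (lmFit, eBayes with an intensity trend, total degrees of freedom 10.3), day as the only term, over all 9 arrays. An exact test of 3 arrays against 3 cannot go below p = 0.1, so single genes were tested in limma. The code was tested on simulated data.

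The genes, lists and tests were chosen with earlier results of these data known. From each role, the rule named the called gene with the largest change per comparison; genes named otherwise are marked. Each of the 6 sows was sampled at all 3 stages, so every day held the same animals. Arrays of different days were therefore not independent samples. The main limma fit, with day as its only term, treated them as independent, and the permutation test without a block also ignored the shared animals. Arrays could not be matched by animal, because the labels do not say which sows made up which pool. Whether the p-values hold beyond these 6 sows was not tested. Pool numbers recur on each day. Deviations of same-numbered pools from their day means correlated at 0.235 to 0.506 (day 1 and day -17), 0.105 to 0.130 (day 17 and day -17) and 0.0960 to 0.107 (day 17 and day 1), against at most 0.113, -0.0421 and -0.0268 for other pairs. All 3 pairs exceeded 0.1 in the first 2 comparisons only, and the pool number served as a block in alternatives. Other alternatives were quantile normalization, median centring, E. coli scaling, a pseudocount of 16, no filter, a 60th percentile filter, no intensity trend, the 6 compared arrays alone, a mean over probe sets, a minimum fold of 2 and each array left out in turn.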

Additional observations from a re-analysis of the deposited data

How the results depend on the processing

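For the 6 genes, 360 values were recomputed under 20 alternatives in each comparison: 329 kept their direction and side of the threshold, 10 lost the call, 17 gained one and 4 turned. The 4 were GPI to day 1 after median centring (0.040) and, with E. coli scaling, B4GALT1 (-0.26) and SLC2A1 (-0.27) from day 1 to day 17 and SLC2A1 from day -17 to day 17 (-0.19). A further 616 values covered the called differences named by the rule and those of SLC2A4, SLC2A5, SLC5A1, PGM2, HBB and B4GALT5. Of these, 551 kept both, 59 lost the call and 6 turned, all with E. coli scaling. From day 1 to day 17 these were GALM (-0.16) and AKT1 (-0.33). From day -17 to day 17 they were B4GALT3 (-0.58), AKT1 (-0.089), AQP5 (-0.26) and PGM2 (-0.043). Named differences outside the 616 could turn with that scaling too. Examples were PGM3 from day -17 to day 17 (-0.72), LALBA from day 1 to day 17 (-0.07) and PYGL in both. The causes were not tested, beyond the constant shift that E. coli scaling makes.

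Of the 6 genes, 3 were called to day 1 (5 after quantile normalization, with E. coli scaling and with a replicate block of pool numbers, fixed or random, and 2 to 4 on leaving out each array). The 1 that fell became 2 after quantile normalization and with either replicate block, 3 with E. coli scaling, and 0 after median centring or at a fold of at least 2 (0 to 2 on leaving out each array). From day 1 to day 17, 3 were called (0 at a fold of at least 2, 2 to 4 on leaving out each array). The 2 that rose became 1 after quantile normalization, after median centring and without an intensity trend, and 0 with E. coli scaling or at a fold of at least 2 (1 to 3 on leaving out each array). The 1 that fell became 3 with E. coli scaling and 0 at a fold of at least 2. From day -17 to day 17, the 2 that fell became 1 at a fold of at least 2 and 3 with E. coli scaling, where the 3 that rose became 2. With the replicate block SLC2A1 was also called from day 1 to day 17 (limma adjusted p = 0.0306), where the pool numbers correlated less, as it was with the 6 arrays alone (0.0314); the block ended no call among the 6 genes.

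The gain of UGP2 on PGM1 over the whole interval, 3.52, did not pass under the replicate block (adjusted p = 0.111), and it was 3.23 after quantile normalization and 3.40 to 3.62 on leaving out each array. B4GALT1 minus UGP2 passed with the mean over probe sets (0.85), and ranged from 0.31 to 0.49 on leaving out each array. B4GALT1 minus SLC2A1 passed after quantile normalization (1.78) and with the mean over probe sets (2.15, where the adjustment over the 4 differences changed), and ranged from 1.92 to 2.44 on leaving out each array. GPI minus PGM1 ranged from 0.36 to 0.69. Signal over background is not known, so dim genes such as SLC2A4 are the least certain.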
